A study of Mus musculus with 21 samples.

Results

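The level of 8 genes was followed in messenger RNA of the mouse cecum, the blind pouch at the start of the large bowel. They are Adprm, Gnpda2, Pbx4, Lsmem1, Stx11, Rhou, Hmga1b and Tppp, 8 of the 25361 genes in the count table. Each was chosen by name because earlier results of these libraries showed it high at the highest broccoli dose or on all broccoli diets. All 8 were found and all 8 passed the filter on low counts, which kept 15652 genes. Differences of these genes between a broccoli diet and the control diet are therefore given as a description, with no test.

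The mice were C57BL/6, a common inbred strain. They were placed at 3 weeks of age on the Total Western Diet, a rodent feed matched to typical American nutrient intake, and stayed on it for 6 weeks. For 3 further weeks they received that diet with 0%, 0.5%, 1.0% or 2.5% broccoli powder, so the control mice also ate the Western diet throughout. There were 6 libraries at 0% and 5 at each other dose, and animals are numbered in the labels. The sources used here state neither the sex nor the cage. Apart from animals above 70 the numbers run in blocks by diet, so diet and numbering cannot be told apart.

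The 8 genes share no pathway. Adprm is a metal-dependent hydrolase of ADP-ribose and CDP-alcohols. Gnpda2 converts glucosamine 6-phosphate to fructose 6-phosphate and so drains the hexosamine pathway, which feeds glycosylation. Pbx4 belongs to the TALE homeobox family, whose proteins pair with HOX factors on DNA. Stx11 is a syntaxin, a membrane fusion protein known for granule release by cytotoxic lymphocytes and also found in other cells. Rhou is an atypical small GTPase that acts on the actin skeleton and on cell adhesion. Hmga1b encodes a high mobility group protein that bends AT-rich DNA, and is an intronless near copy of Hmga1. Tppp promotes tubulin polymerisation and is best known in oligodendrocytes. Lsmem1 encodes a small single-pass membrane protein whose role is poorly known.

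The sequence just before 4 of these genes is shown because they stand for the patterns described next. Gnpda2 was high on all broccoli diets, Pbx4 and Stx11 were highest in 3 animals at 2.5%, and Hmga1b was the only member with a match to the AP-1 motif. The sequences are from RefSeq, on GRCm38.p6, and each runs 5′ to 3′ on the gene's strand up to the outermost annotated start. They cover chr5:69592341-69592554 (minus strand) for Gnpda2, chr8:69832374-69832490 (plus) for Pbx4, chr10:12964299-12964509 (minus) for Stx11 and chr11:120762544-120762793 (plus) for Hmga1b. Capitals mark motif matches, on either strand.
Gnpda2: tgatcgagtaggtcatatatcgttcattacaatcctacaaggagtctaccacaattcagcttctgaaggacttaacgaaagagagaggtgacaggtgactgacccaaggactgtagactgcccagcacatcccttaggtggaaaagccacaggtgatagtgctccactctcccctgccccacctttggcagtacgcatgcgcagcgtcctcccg
Pbx4: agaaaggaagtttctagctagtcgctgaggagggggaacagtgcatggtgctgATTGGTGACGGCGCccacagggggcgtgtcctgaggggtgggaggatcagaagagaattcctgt
Stx11: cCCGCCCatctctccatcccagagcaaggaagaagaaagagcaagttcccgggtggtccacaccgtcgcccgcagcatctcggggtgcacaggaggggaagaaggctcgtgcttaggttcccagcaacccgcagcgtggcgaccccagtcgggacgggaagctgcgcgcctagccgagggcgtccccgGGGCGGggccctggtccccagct
Hmga1b: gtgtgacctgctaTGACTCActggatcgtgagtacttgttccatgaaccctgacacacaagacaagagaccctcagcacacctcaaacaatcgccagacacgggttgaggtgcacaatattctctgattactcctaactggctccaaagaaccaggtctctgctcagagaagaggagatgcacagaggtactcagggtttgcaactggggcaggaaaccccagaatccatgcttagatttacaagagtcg

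Motifs were searched on both strands in the 250 bases before the RefSeq start of all 8 genes and of 32851 starts in all. The AP-1 motif TGANTCA was found before Hmga1b alone among the members and before 6.75% of all starts. The antioxidant response element TGACNNNGC and the shorter core TGACG of the cAMP response element were each found before Pbx4 alone. They are before 10.16% and 17.77% of all starts, and in Pbx4 the 2 matches begin at the same base. No member held the full cAMP response element TGACGTCA (1.55% of all starts), the xenobiotic response element TNGCGTG bound by the aryl hydrocarbon receptor (4.1%), the E-box CACGTG (6.02%) or the SRF core (0.06%). GGGCGG was found before 3 members and CCAAT before 2, against 32.74% and 33.85% of all starts. A match describes letters only.

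Library totals lay between 28514263 and 58594569 counts, and mitochondrially encoded transcripts took 22.1% to 31.8% of them. All 10 markers of large bowel epithelium were detected in every library, with Epcam at 587 CPM or more, Car1 at 2870 CPM or more and Muc2 from 678 to 3780 CPM. CPM is the count of a gene scaled to the library total and its TMM factor, which evens out differences in composition. Markers of adipocytes and of the small intestine varied widely. Adipocyte markers had a mean log2 CPM from -2.51 to 5.51, both at 1.0%, and small intestine markers had 6.32 in 0% replicate 5 and 6.98 in 1.0% replicate 1 and at most 4.83 in the other 19 libraries. In bulk tissue, fewer cells of a type and less RNA per cell cannot be told apart.

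Per kilobase of exon, control levels ranged from 0.383 CPM for Lsmem1 to 23.5 CPM for Rhou. Rhou at 23.5 ± 3.59 (SD, n = 6), Adprm at 19.9 ± 1.35, Tppp at 16.1 ± 2.46 and Hmga1b at 10.6 ± 1.36 CPM per kb were the abundant members. The ranges of mean ± 1 SD overlapped for Rhou and Adprm, about touched for Adprm and Tppp, and did not overlap for Tppp and Hmga1b. The other 4 were low, at 0.783 ± 0.165 for Stx11, 0.652 ± 0.103 for Gnpda2, 0.452 ± 0.0856 for Pbx4 and 0.383 ± 0.0916 for Lsmem1, all n = 6. Pbx4 rested on 28 to 157 counts per library and Lsmem1 on 18 to 168, so counting error alone is large for these genes. Adprm varied least among controls, with a coefficient of variation of 6.77%, and Lsmem1 most, with 23.9%.

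The members fell into different patterns over dose, as the plot of levels by diet shows. In 6 of 8 the 3 highest of all 21 libraries were animals 44, 45 and 46, which are replicates 3, 4 and 5 at 2.5%. These are Adprm, Pbx4, Lsmem1, Stx11, Rhou and Hmga1b. The same 3 animals were highest in 1.19% of all genes tested. In each of the 6, neither of the other animals at 2.5%, numbers 40 and 42, was above the highest of the 16 libraries at 0% to 1.0%, a pattern met by 1.05% of all genes. For Adprm this rests on 0.5% replicate 3 at 49.8 CPM and for Rhou on 0.5% replicate 5 at 114.6 CPM, and without either library 5 members showed the pattern. With library totals as the scaling 4 did, Lsmem1, Pbx4, Rhou and Stx11. Gnpda2 and Tppp did not show it.

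**Figure D1:**
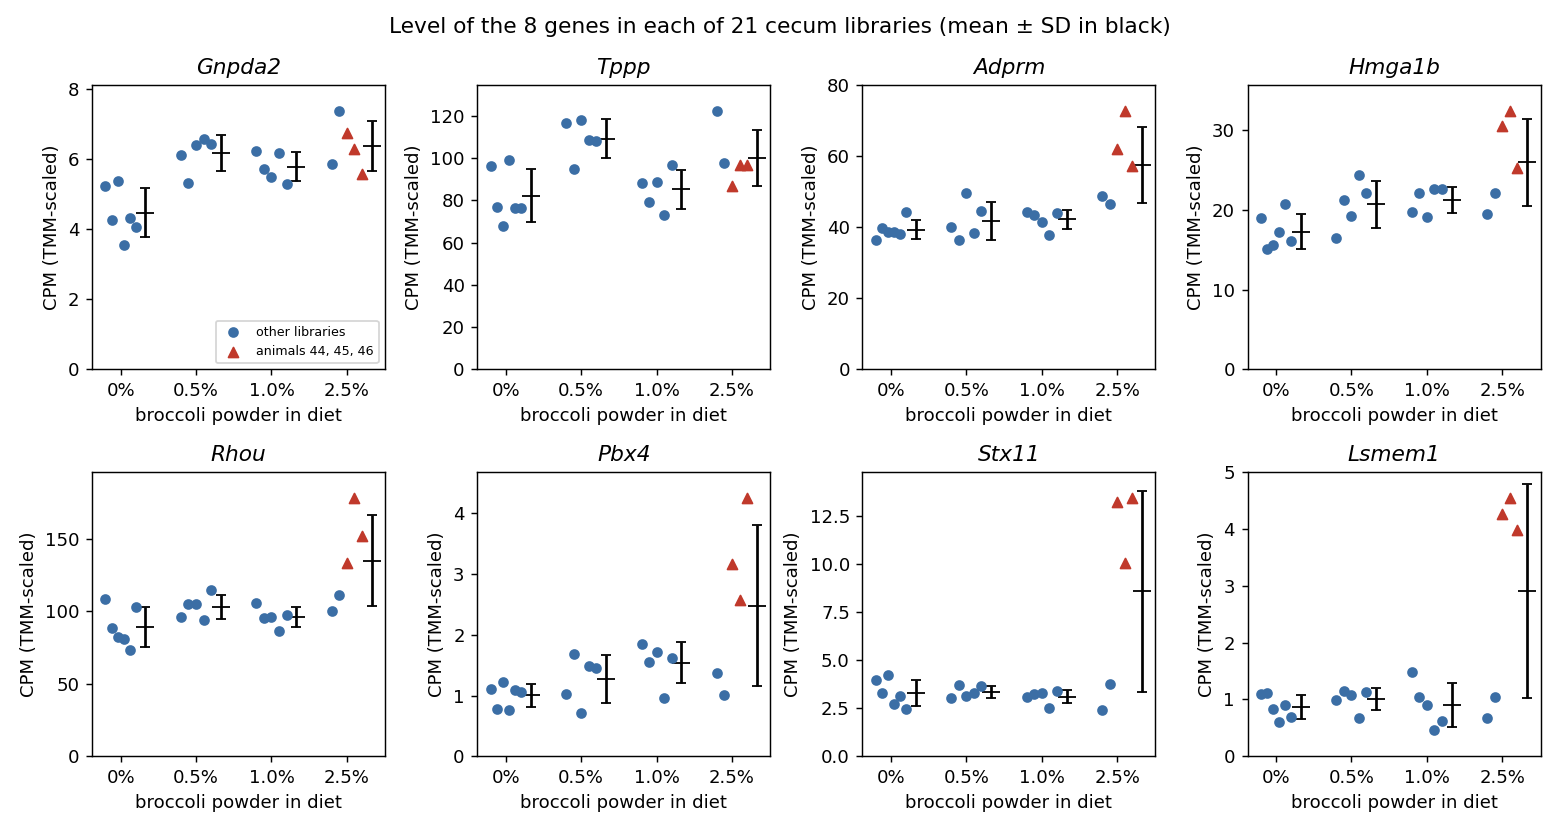
Level of each of the 8 genes in CPM (vertical axis, from 0) in the 21 libraries by diet (horizontal axis), with points for libraries, triangles for animals 44, 45 and 46, and black bars for the mean ± SD. The triangles lie above all other points in 6 panels, Adprm, Hmga1b, Rhou, Pbx4, Stx11 and Lsmem1, and among the others in Gnpda2 and Tppp.

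Group means were higher at each further dose for Adprm, Pbx4 and Hmga1b, as for 4.16% of all genes. Without animals 44, 45 and 46 this held for Adprm only, and without 0.5% replicate 1 for Pbx4 only. All 3 broccoli means were above the control mean in 7 of 8 members, all but Stx11, and in 23.7% of all genes. No member kept means higher at each further dose both without the 3 animals and without 0.5% replicate 1.

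Gnpda2 was higher on all 3 broccoli diets and did not go on increasing with dose. Controls ran from 3.55 to 5.37 CPM with a median of 4.30. At 0.5% the 5 libraries were at 6.11, 5.32, 6.4, 6.59 and 6.43 CPM, at 1.0% at 6.23, 5.73, 5.49, 6.19 and 5.29 CPM, and at 2.5% at 5.86, 7.38, 6.76, 6.30 and 5.59 CPM. Of the 15 libraries on broccoli 13 lay above every control, and the other 2, at 5.32 and 5.29 CPM, fell just under the highest control. At least 13 of 15 was met by 0.0703% of all genes tested, and the choice of Gnpda2 rests on it.

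The mean of Gnpda2 was 4.47 ± 0.705 CPM (SD, n = 6) at 0%, 6.17 ± 0.508 at 0.5%, 5.79 ± 0.416 at 1.0% and 6.38 ± 0.717 at 2.5% (n = 5 each). The fitted log2 changes against 0% were 0.46 ± 0.12 (SE), 0.37 ± 0.12 and 0.51 ± 0.12. These 3 values share the control libraries. Without animals 44, 45 and 46 the value at 2.5% was 0.56 ± 0.16, against 0.51 ± 0.12 with them. That fit kept only animals 40 and 42 at 2.5%. Gnpda2 overlaps Guf1, a mitochondrial translation factor on the opposite strand, and 13.15% of its 50-base transcript windows occur in Guf1 transcripts. Guf1 itself stood at 22.4 CPM at 0% and 23.7 CPM at 2.5%, a log2 change of 0.08 ± 0.14 (edgeR adjusted p = 0.901).

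Tppp was highest at 0.5%, so its label as a gene higher with dose is not what the means show. Controls ran from 67.8 to 99.1 CPM with a median of 76.7. The libraries at 0.5% were at 116.5, 94.9, 117.8, 108.4 and 108.0 CPM, and 4 of 5 lay above all controls, as in 1.35% of all genes at that dose. At 1.0% they were at 88.3, 79.0, 88.8, 73.0 and 96.5 CPM, all within the control range. At 2.5% they were at 122.3, 97.7, 87.0, 96.6 and 96.6 CPM, with animal 40 alone above the controls.

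In log2 terms Tppp differed from 0% by 0.41 ± 0.10 (SE) at 0.5%, 0.05 ± 0.10 at 1.0% and 0.28 ± 0.10 at 2.5%, with a slope of 0.07 ± 0.05 per 1% powder. Tppp lies on chromosome 13 from 74009407 to 74035753 (plus strand, GRCm38), 175365 bases from Ahrr, whose product represses the aryl hydrocarbon receptor. The 3 protein coding genes between them, Cep72, Slc9a3 and Exoc3, gave log2 changes at 2.5% of 0.17 ± 0.14, 0.39 ± 0.30 and 0.07 ± 0.07 (edgeR adjusted p = 0.750, 0.743 and 0.786). Ahrr had 3.31, 3.51 and 4.42 CPM at 0.5%, 1.0% and 2.5% against 2.19 CPM at 0%. Its log2 change at 2.5% was 1.01 ± 0.20 (edgeR adjusted p = 0.0444), and it was named after its values were seen. Tppp had 109.1, 85.1 and 100 CPM at these doses against 82.1 CPM at 0%. The lowest broccoli mean was that at 0.5% for Ahrr and that at 1.0% for Tppp. A link between these genes was not tested.

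Adprm, the ADP-ribose and CDP-alcohol hydrolase, was higher in all 5 libraries at 2.5% and most so in 3. Controls ran from 36.6 to 44.4 CPM with a median of 38.6. Animals 40 and 42 were at 48.8 and 46.7 CPM, and animals 44, 45 and 46 at 62.1, 72.8 and 57.4 CPM. All 5 lay above every control, which held for 0.454% of all genes. At 0.5% the libraries were at 40, 36.5, 49.8, 38.4 and 44.8 CPM and at 1.0% at 44.4, 43.6, 41.4, 37.8 and 43.9 CPM, so 2 and 1 of 5 were above the controls.

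The fitted log2 change of Adprm was 0.09 ± 0.10 (SE) at 0.5%, 0.10 ± 0.10 at 1.0% and 0.55 ± 0.10 at 2.5%. Without the 3 animals the value at 2.5% was 0.28 ± 0.11. Adprm lies on chromosome 11 from 67037905 to 67052594 (minus strand), and the mitochondrial copper chaperone gene Sco1 starts 76 bases away in the opposite direction. Sco1 changed by 0.22 ± 0.10 at 2.5% (edgeR adjusted p = 0.551), with 42.9 and 61.1 CPM in animals 40 and 42 and 55.5, 68.4 and 53.0 CPM in animals 44, 45 and 46. None of the 50-base windows of Adprm occurs in another annotated gene.

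Stx11 was high in 3 animals alone. The 16 libraries at 0% to 1.0% ran up to 4.24 CPM, with a control range of 2.45 to 4.24 and a median of 3.21 CPM. At 0.5% the values were 3.01, 3.72, 3.15, 3.28 and 3.63 CPM and at 1.0% they were 3.07, 3.26, 3.27, 2.51 and 3.39 CPM. Animals 40 and 42 had 2.4 and 3.76 CPM, and animals 44, 45 and 46 had 13.2, 10.03 and 13.5 CPM, or 4.01, 3.04 and 4.08 times the control mean. No library below 2.5% lay above the controls, and a wide gap separated the 3 animals from animals 40 and 42. At least 3 of 5 libraries at 2.5% above every control was met by 7.1% of all genes.

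The log2 change of Stx11 was 0.03 ± 0.31 (SE) at 0.5%, -0.09 ± 0.31 at 1.0% and 1.38 ± 0.31 at 2.5%. Without the 3 animals the last was -0.10 ± 0.22. Stx11 is known as a gene of cytotoxic lymphocytes, and 7 of 8 T and NK cell markers were measured well enough to pass the filter. Their mean log2 CPM was 0.694, 0.214 and 0.624 in animals 44, 45 and 46 and 0.648 and 0.830 in animals 40 and 42, against 0.181 to 1.080 in controls. The summed level of these markers was 10.6 to 19.9 CPM at 0% and 12.98 to 19.2 CPM at 2.5%.

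Lsmem1, the small membrane protein gene, had the same split and the largest fitted change of the 8 at 2.5%. Controls ran from 0.60 to 1.12 CPM with a median of 0.86. The values were 0.99, 1.15, 1.07, 0.68 and 1.13 CPM at 0.5% and 1.47, 1.05, 0.91, 0.47 and 0.62 CPM at 1.0%. Animals 40 and 42 had 0.67 and 1.04 CPM, whereas animals 44, 45 and 46 had 4.25, 4.55 and 3.99 CPM, which is 4.87, 5.21 and 4.57 times the control mean. The fitted log2 change at 2.5% was 1.73 ± 0.38 (SE), and -0.03 ± 0.39 without the 3 animals. At 0.5% it was 0.21 ± 0.39 and at 1.0% 0.05 ± 0.39.

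The next gene beside Lsmem1 on chromosome 12 showed the same 3 animals. Ifrd1, a stress-responsive regulator of transcription, lies 2077 bases away on the same strand. It was at 205.6, 283.0 and 214.4 CPM in animals 44, 45 and 46, at 64.8 and 66.5 CPM in animals 40 and 42, and at 83.9 ± 17.5 CPM (SD, n = 6) at 0%. The log2 change at 2.5% was 0.99 ± 0.34 and did not pass (edgeR adjusted p = 0.424), and it was -0.36 ± 0.29 without the 3 animals. Arl4a, a small GTPase gene on the other side, changed by 0.41 ± 0.13 (edgeR adjusted p = 0.311) with 191.4, 219.5 and 191.0 CPM in the 3 animals and 129.1 ± 11.7 CPM at 0%. Lsmem1 lies opposite Gm17056, with which it shares 10.35% of its 50-base windows. This is a share of sequence and not of reads, and its effect on the counts was not measured.

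Pbx4, the least studied PBX factor, combined higher values at 1.0% with 3 high animals at 2.5%. Controls ran from 0.75 to 1.22 CPM with a median of 1.08. At 0.5% the libraries had 1.02, 1.69, 0.71, 1.48 and 1.45 CPM, and at 1.0% they had 1.85, 1.56, 1.71, 0.97 and 1.62 CPM. Above every control were 3 of 5 and then 4 of 5, the latter met by 0.971% of all genes at 1.0%. At 2.5% animals 40 and 42 had 1.38 and 1.01 CPM and animals 44, 45 and 46 had 3.17, 2.57 and 4.26 CPM.

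The fitted log2 change of Pbx4 was 0.34 ± 0.30 (SE) at 0.5%, 0.62 ± 0.30 at 1.0% and 1.30 ± 0.30 at 2.5%. Without animals 44, 45 and 46 the value at 2.5% was 0.25 ± 0.33, under that at 1.0%. Over all 15 libraries on broccoli 11 were above every control. Of its nearest protein coding neighbours on chromosome 8, Lpar2 changed by 0.10, Gmip by -0.02 and Yjefn3 by -0.19 at 2.5%.

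Rhou, the atypical small GTPase, differed mainly in the same 3 animals. Controls ran from 73.4 to 108.6 CPM with a median of 85.4. The values at 0.5% were 95.9, 105.1, 105.4, 94.2 and 114.6 CPM and at 1.0% 106.1, 95.7, 96.4, 86.7 and 97.8 CPM, so 1 and 0 libraries were above every control. At 2.5% it was 4 of 5, a count reached by 2.27% of all genes. Animals 40 and 42 had 100.4 and 111.2 CPM and animals 44, 45 and 46 had 133.7, 178.7 and 152.0 CPM. The log2 change was 0.20 ± 0.12 (SE) at 0.5%, 0.11 ± 0.12 at 1.0% and 0.60 ± 0.12 at 2.5%, the last 0.24 ± 0.12 without the 3 animals. Rhou overlaps the predicted gene Gm20388 on the same strand.

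Hmga1b, the chromatin protein copy, was a little higher on all broccoli diets and highest in the 3 animals. Controls ran from 15.1 to 20.8 CPM with a median of 16.7. Libraries at 0.5% had 16.5, 21.3, 19.3, 24.4 and 22.1 CPM, and those at 1.0% had 19.8, 22.1, 19.1, 22.6 and 22.6 CPM. Animals 40 and 42 had 19.5 and 22.1 CPM and animals 44, 45 and 46 had 30.6, 32.5 and 25.3 CPM. Of the 15 libraries on broccoli 10 were above every control, a count reached by 0.863% of all genes.

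In log2 terms Hmga1b differed from 0% by 0.26 ± 0.12 (SE), 0.30 ± 0.12 and 0.59 ± 0.12 with dose, the last 0.26 ± 0.14 without the 3 animals. Of its 50-base windows, 88.97% occur unchanged in transcripts of Hmga1. This is a share of sequence and not of reads. How far reads of the 2 genes could be told apart was not measured. Hmga1 was at 54.4, 61.1 and 56.8 CPM in the 3 animals, 41.5 and 44.7 CPM in animals 40 and 42 and 38.9 ± 3.76 CPM (SD, n = 6) at 0%. Its log2 change at 2.5% was 0.41 ± 0.10 and did not pass (edgeR adjusted p = 0.109). With the counts of both genes summed, the log2 change was 0.25 ± 0.09, 0.17 ± 0.09 and 0.47 ± 0.09 at the 3 doses. Hmga1b took 30.8% ± 3.62 (SD, n = 6) of the sum at 0% and 33.3% ± 2.05 (n = 5) at 2.5%.

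**Figure D2:**
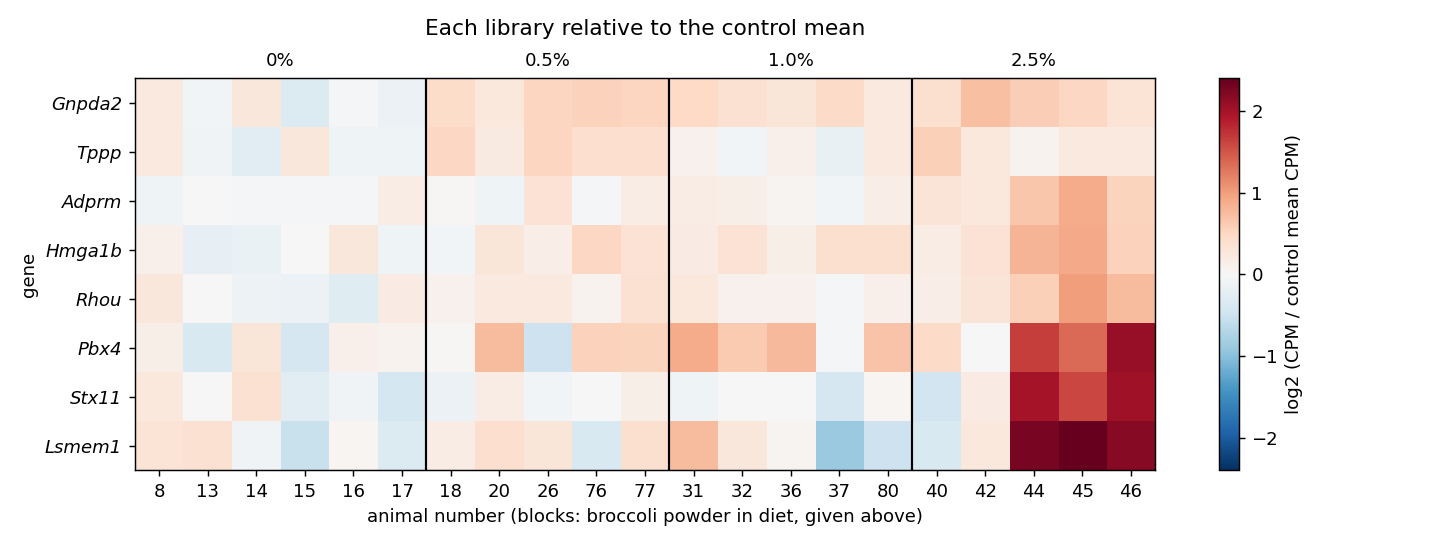
Each library (columns, by animal number and in blocks by diet) as log2 of its CPM over the control mean of that gene (colour scale), for the 8 genes in rows. Animals 44, 45 and 46 hold the 3 highest values in each of the lower 6 rows, while Gnpda2 in the top row is shifted over all broccoli blocks.

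The median log2 change over the 8 members was 0.23 at 0.5%, 0.11 at 1.0% and 0.59 at 2.5%, and over all 15652 genes it was 0.00 or -0.01 at each dose. All 8 were positive at 2.5%, where 46.9% of all genes were, which the choice of members sets. Without animals 44, 45 and 46, which left only animals 40 and 42 at that dose, the median at 2.5% was 0.26. The plot of change by dose gives the fitted values, and that of the 3 fits gives each member with and without these animals.

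**Figure D3:**
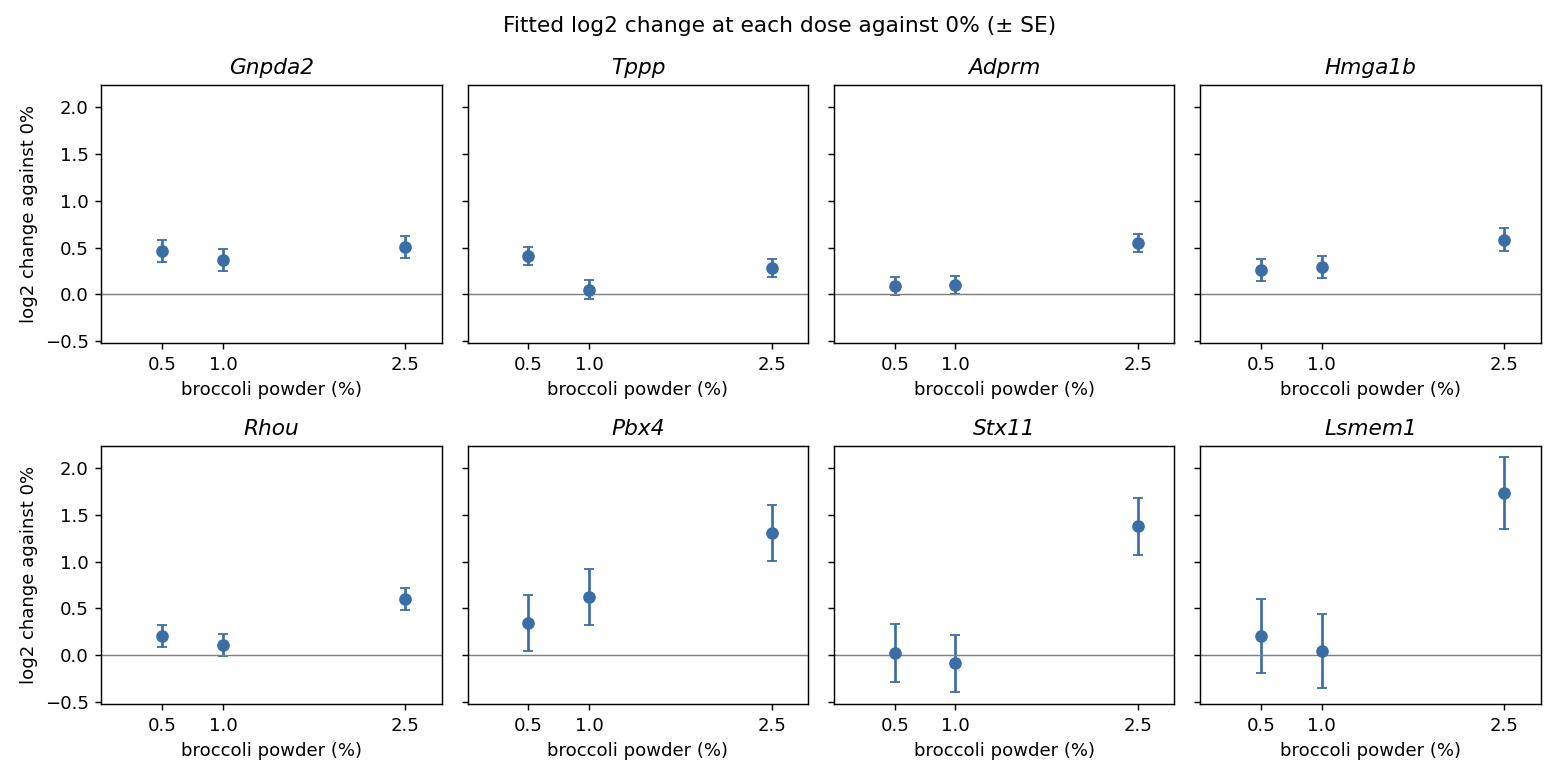
Fitted log2 change against 0% (vertical axis) at 0.5%, 1.0% and 2.5% broccoli powder (horizontal axis) for each gene, with bars for the SE. Gnpda2 sits at 0.46, 0.37 and 0.51, Tppp is highest at 0.5%, and Stx11 and Lsmem1 leave 0 by more than their SE at 2.5% only.

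**Figure D4:**
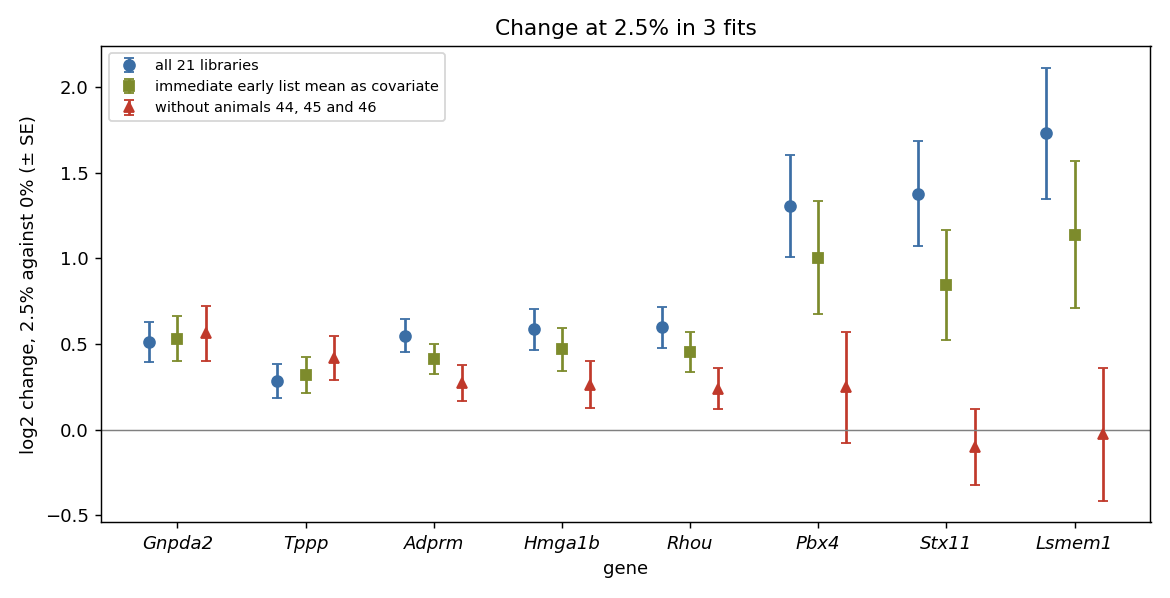
Log2 change at 2.5% against 0% (vertical axis, bars for the SE) for each gene with all 21 libraries, with the immediate early list mean as a covariate, and without animals 44, 45 and 46. Stx11 and Lsmem1 drop to -0.10 and -0.03 without the 3 animals, and Gnpda2 and Tppp stand at 0.56 and 0.42.

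Lists of other genes were set beside the 3 animals. The mean log2 CPM of 12 immediate early genes, such as Fos, Atf3 and Ppp1r15a, was 7.09, 7.49 and 7.21 in animals 44, 45 and 46 and 6.09 and 6.35 in animals 40 and 42, against 5.84 to 6.76 in the 16 libraries at 0% to 1.0%. Proliferation genes were at 4.08, 4.13 and 3.84 in the 3 animals and 3.21 and 3.67 in animals 40 and 42, against 3.36 to 3.94 in controls. Small intestine markers were at 1.73, 1.49 and 1.31 in the 3 animals, within the 0.932 to 2.20 of 5 of 6 controls, and at 3.999 and 4.01 in animals 40 and 42. Adipocyte markers were at 3.08, 2.04 and 1.61 in the 3 animals and 3.93 and 3.96 in animals 40 and 42, all within the spread of the 16 libraries at 0% to 1.0%. Red cell transcripts were at -0.18, -0.36 and -0.65 in the 3 animals and 0.29 and 0.23 in animals 40 and 42, against -0.04 to 0.76 in those 16 libraries. The 3 animals spanned 7.24 to 8.02 in smooth muscle markers, against 7.53 to 8.76 in controls. Apart from the fits described next, the part of these measures in the levels of the 6 genes was not tested.

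With the immediate early list mean as a covariate, the log2 change at 2.5% was 0.85 for Stx11, 1.14 for Lsmem1 and 1.00 for Pbx4, and it was 0.41 for Adprm, 0.45 for Rhou and 0.47 for Hmga1b. For Gnpda2 it was 0.53 and for Tppp 0.32, close to the values without the covariate. These fits used all 21 libraries, and the immediate early list mean was highest in animals 44, 45 and 46. A gene high in those 3 animals alone therefore tends to a smaller value with this covariate. The list and the 3 animals cannot be told apart in these fits. With the small intestine list mean as a covariate the value was 1.33 for Stx11 and 1.71 for Lsmem1, and the median of the 8 was 0.59.

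Whether the members follow these lists was asked in the 16 libraries at 0% to 1.0%, which did not set the 3-animal pattern, with diet in the fit. There the immediate early list mean spanned only 5.84 to 6.76, against 7.09 or more in the 3 animals. The fits therefore cannot show what members do at the levels of the 3 animals, and low counts limit them for Pbx4 and Lsmem1. No member was called against the immediate early list mean, at an edgeR adjusted p of 0.772 or more, where 0.0515% of all genes were. None was called against the small intestine list, at 0.784 or more (3.02% of all genes), or the list of aryl hydrocarbon receptor targets, at 0.876 or more (0% of all genes). In these 3 fits no member had an unadjusted p under 0.05, and DESeq2 and limma voom called none. Of all 15523 genes in these edgeR fits, 1071, 2164 and 1209 had an unadjusted p under 0.05, in the order of the lists above. For Stx11 the log2 change per log2 unit of the immediate early list was -0.28 ± 0.25 (SE), and for Lsmem1 it was -0.65 ± 0.45. Ifrd1, the neighbour of Lsmem1, was called in the same fit, at 1.12 ± 0.19 (edgeR adjusted p = 0.0312).

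The contrast of 1.0% with 0.5% was tested. The choice of members did not compare these doses with each other, but high values on all broccoli diets took part in it. A member chosen for high values at 0.5% would tend to be lower at 1.0%. The p-values of members here, that of Tppp above all, are therefore not free of the choice. No member passed with edgeR, DESeq2 or limma voom, as no gene did with edgeR (0% called). Tppp came nearest, lower at 1.0% by a log2 change of -0.36 ± 0.10 (SE), with an unadjusted p of 0.00196 and an edgeR adjusted p of 0.678. It was the only member with an unadjusted p under 0.05. Its 5 libraries at 1.0% and 5 at 0.5% overlapped only through 96.5 CPM at 1.0% and 94.9 CPM at 0.5%. Pbx4 gave 0.28 ± 0.31 and Gnpda2 -0.09 ± 0.12 in this contrast.

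Genes related by function or family were tested, since they were listed by function or family and not for their values. The lists were drawn up with earlier results of these data known. Hmga1 is among the related genes and shares most sequence windows with Hmga1b, so its test is not free of the choice. Of 116 related genes 110 passed the filter, and edgeR called none in any dose contrast or in the slope. An unadjusted p under 0.05 was seen in 8 at 0.5%, 1 at 1.0%, 6 for the mean of the doses and 7 for the slope. These are 7.27%, 0.909%, 5.45% and 6.36% of the 110, against 7.14%, 3.18%, 6.58% and 7.32% of all genes. At an edgeR adjusted p under 0.05, the share of all genes called was 0.00639% at 0.5%, 0% at 1.0% and 0.109% at 2.5%. It was 0% for the mean of the doses and 0.147% for the slope. At 2.5% 8 of the 110, or 7.27%, had an unadjusted p under 0.05 against 8.43% of all genes. DESeq2 called 1 of the 110, which was Hmga1, and limma voom called 0. Of all 15652 genes at 2.5%, DESeq2 called 84 and limma voom 7. The median log2 change of the 110 at 2.5% was 0.00, with 53 positive.

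Most of the closest relatives had small fitted changes. Gnpda1, which carries out the same reaction as Gnpda2, changed by -0.07 ± 0.11 (SE) at 0.5%, 0.00 at 1.0% and -0.04 ± 0.11 at 2.5%. At 2.5% 6 of 15 hexosamine genes were positive, with a median of -0.04. In edgeR 3 of the 15 were lower at an unadjusted p under 0.05, and none was called. Over all genes at 2.5%, 8.43% had such a p in either direction and 46.9% were positive. Pbx2 and Pbx3, of the same family as Pbx4, changed by -0.01 and 0.06 at 2.5%. Stx7 changed by 0.07 ± 0.08 and 4 of 13 syntaxins were positive, as were 3 of 8 SNARE partners and granule genes. None of the 14 genes of ADP-ribose turnover, 6 of them positive, or of the 10 of CDP-alcohol metabolism, 7 positive, was called.

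Rhov, the closest relative of Rhou, changed by 0.50 ± 0.30 at 2.5% (edgeR adjusted p = 0.664). Rhod, which acts on endosome movement, changed by 0.42 ± 0.16 (edgeR adjusted p = 0.487), with 70.3, 68.5 and 59.9 CPM in the 3 animals and 45.2 and 45.8 CPM in animals 40 and 42. Hmga2 changed by 0.31 ± 0.12 at 0.5% and 0.20 ± 0.12 at 2.5% (edgeR adjusted p = 0.675 and 0.657). Tppp3 changed by -0.02 ± 0.19 at 2.5%, Tppp2 had 3 counts over all libraries and was not tested, and Lsmem2 changed by 0.19 ± 0.23. The ethanolamine kinases Etnk1 and Etnk2 gave 0.20 ± 0.08 and -0.91 ± 0.31 at 2.5% (edgeR adjusted p = 0.488 and 0.392), and the ectonucleotidase Enpp1 gave -0.33 ± 0.11 at 0.5% (edgeR adjusted p = 0.675).

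Genomic neighbours were tested too, as the 2 nearest protein coding genes on each side of each member that do not overlap it. Of 32 neighbours 26 passed the filter, and none was called in any dose contrast or in the slope by edgeR, DESeq2 or limma voom. At 2.5% 4 of the 26 had an unadjusted p under 0.05 in edgeR, which were Ifrd1, Arl4a, Sco1 and Tmem238l beside Adprm. That is 15.4%, against 8.43% of all genes, and the difference of the shares was not tested. The median log2 change of the 26 was 0.01 with 14 positive. The plot of members and neighbours gives all 26, of which Ifrd1 had the largest value.

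**Figure D5:**
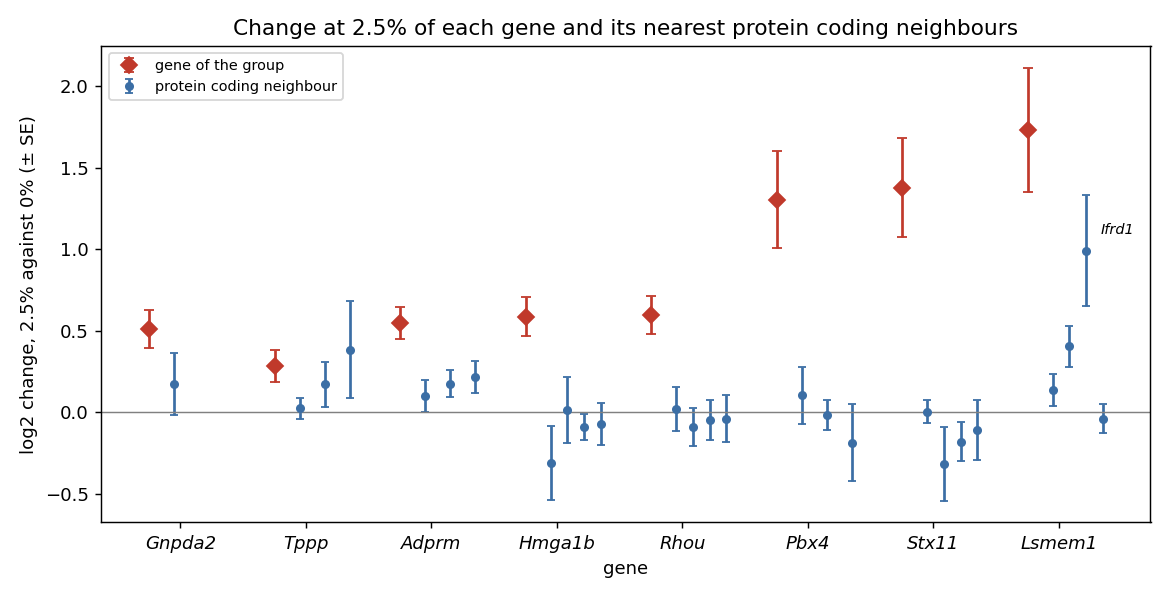
Log2 change at 2.5% against 0% (vertical axis, bars for the SE) of each gene (diamond) and of its nearest tested protein coding neighbours (circles). Most neighbours lie near 0, and Ifrd1 beside Lsmem1 stands at 0.99.

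Pearson's r of log2 CPM across the 21 libraries names the genes most like each member, as a description that the 3 animals largely set for 6 of them. Stx11 was most like Ppp1r15a (r = 0.927), Lsmem1 (0.924) and Cxcl16 (0.915), and Lsmem1 most like Ets2 (0.927) and Tsc22d2 (0.924). Rhou was nearest to Dusp10 (0.931), Adprm to Hist1h1e (0.909), Pbx4 to Haus6 (0.816) and Hmga1b to Grpel2 (0.811). Gnpda2 was nearest to Nsun3 (0.781) and Tppp to Spata17 (0.764). Over the 18 libraries without animals 44, 45 and 46, Stx11 was most like Tango6 (0.787), Lsmem1 like Luzp1 (0.799), Rhou like Slco2a1 (0.848) and Adprm like Rwdd2a (0.736), while Nsun3 was still among the 3 nearest to Gnpda2 (0.766). Among the 6 genes high in the 3 animals, r between pairs had a median of 0.743 over 21 libraries and of 0.194 over the 18 others.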

How the data were processed

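Messenger RNA of the cecum was sequenced from strand-marking ligation libraries of total RNA, according to the labels. Raw read counts for each gene were deposited by the authors in a single table, and the submitters' processing notes name mm10. The sources used here do not give the aligner, the counting tool or its strand setting. All 21 columns matched a sample title, and 25268 of 25361 gene identifiers were found in GENCODE mouse release 21 (GRCm38).

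Counts were fitted over all 21 libraries with edgeR 4.0.16 in R 4.3.3 (TMM, filterByExpr by diet, robust quasi-likelihood test, Benjamini-Hochberg adjustment over all genes tested, two-sided, called under 0.05). Each SE is the log2 change over the root of the F statistic. DESeq2 1.42.0, limma 3.58.1 voom, other scalings and left-out libraries were alternatives. Libraries were taken as separate mice by their animal numbers. Shared windows are 50-base strings of GENCODE transcripts on either strand.

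Replicate numbers follow accession order and pair nothing. Pairs of libraries within a diet differed beyond sampling noise, with a chi-square of at least 17.1 per degree of freedom. The members and lists were chosen with earlier results of these data known. Named besides the members were their closest relatives, related genes with an unadjusted p under 0.01 in a dose contrast or the slope, nearest neighbours, and the 3 genes most alike by r. Gm17056, Gm20388, Guf1, Ahrr and Exoc3 were named after values were seen, and the motifs were chosen then too. Some related genes are not reported here.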

Additional observations from a re-analysis of the deposited data

Results flagged for a closer look

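The highest or lowest library of each diet was compared with the others of that diet by Dixon's gap ratio in 52 groups of values, covering the 8 genes, Hmga1, Ifrd1 and 3 gene lists. Chance flags about 1 in 20 such groups. No group of values of the 8 genes stood out by this ratio, which looks for 1 library apart from the rest. The small intestine marker mean stood apart in 2 libraries. It was 6.322 log2 CPM in 0% replicate 5, against 0.932 to 2.20 in the other 5 controls. It was 6.983 in 1.0% replicate 1, against 1.09 to 2.44 in the other 4 libraries at that dose. Gnpda2 was at 4.33 and 6.23 CPM in these libraries and Stx11 at 3.13 and 3.07 CPM.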

How the results depend on the processing

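RLE scaling, library totals, no count filter, limma voom, a fit of only the diets compared and leaving out animals above 70 kept every member's direction at 2.5% and left each count of calls at 0. Members high in animals 44, 45 and 46 alone numbered 4 with library totals, 5 without animals above 70 and 5 to 6 over libraries left out singly, in place of 6. Leaving out animals 44, 45 and 46 together changed most. The median log2 change of the 8 members at 2.5% was then 0.2553 in place of 0.5915. Lsmem1 was at -0.0272, Stx11 at -0.1008 and Ifrd1 at -0.3568, and means were higher at each further dose in 1 member in place of 3. DESeq2 called 1 related gene at 2.5% in place of 0, which was Hmga1 (adjusted p = 0.0194), where it called 84 of all 15652 genes. Hmga1 holds most of the sequence windows of Hmga1b, so calls of Hmga1 are not independent of the choice of that member. Leaving out 1 library at a time, related genes called at 2.5% ranged from 0 to 1, with Hmga1 called without 2.5% replicate 1 or 2. The count of members with means in the order of dose then ranged from 1, without 0.5% replicate 1, to 4, without 1.0% replicate 4. The median at 2.5% ranged from 0.504 to 0.680. No paired analysis was possible because the labels give no shared replicate numbers. The low counts of Pbx4 and Lsmem1 limit what can be seen at 0.5% and 1.0%, where the SE of their log2 change was 0.30 to 0.39.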
